A study of Mus musculus with 20 samples.

Results

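Acute phase proteins are secreted proteins whose blood level shifts within hours to days of injury or inflammation. The liver is their best known source, where IL-6 acting through STAT3, IL-1 and TNF acting through NF-κB, and the C/EBP factors drive their genes. Adipocytes and the macrophages of adipose tissue also transcribe several of them, and serum amyloid A3 and haptoglobin in particular are known as products of fat. The genes described here are 9 of these: Saa1, Saa2 and Saa3 (serum amyloid A apolipoproteins of high-density lipoprotein), Lcn2 (lipocalin 2, which binds bacterial siderophores and so withholds iron), Hp (haptoglobin, which binds free haemoglobin), Orm1 and Orm2 (α1-acid glycoproteins, plasma carriers of small lipophilic molecules), Lbp (the lipopolysaccharide binding protein) and Cp (ceruloplasmin, a copper-containing ferroxidase). They were chosen by gene symbol, and all 9 were found among the 25219 genes of the deposited table.

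RNA was sequenced from inguinal white adipose tissue (iWAT) and brown adipose tissue (BAT) of male mice, with 5 libraries for each tissue and genotype and 20 in all. Ai-α4KO mice carried floxed alleles of α4, the PP2A-binding phosphatase regulator encoded by Igbp1, together with a tamoxifen-inducible Cre (CreERT2) under the adiponectin promoter, which restricts recombination to adipocytes. Control mice, called WT in the labels, carried the floxed alleles without the Cre. Both genotypes received tamoxifen at 100 mg/kg in 5 injections over 6 days from 2 months of age, and the tissues were compared 1 week after recombination. The labels do not say whether each library is a separate mouse or whether the same mice gave both tissues, so the p-values below measure the spread between libraries.

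Libraries held 24023371 to 50384446 counts. Levels are given as CPM (the usual count scaled to library size, here after TMM scaling over all 20 libraries) or, where genes are compared with each other, as the deposited FPKM, which also divides by transcript length. A gene is said to have risen or fallen when edgeR's quasi-likelihood test gave a Benjamini-Hochberg adjusted p below 0.01 over all genes and the change was at least 2-fold. Fold changes are log2 ± SE with n = 5 libraries a group. Igbp1 itself fell from 67.2 ± 7.0 to 10.8 ± 0.4 CPM in iWAT (SD, log2 fold change -2.65 ± 0.09, adjusted p = 4.99e-08). In BAT Igbp1 fell from 93.9 ± 7.3 to 17.0 ± 4.8 CPM (log2 fold change -2.50 ± 0.17, adjusted p = 2.20e-07). Adipocyte markers summed to 33070 to 44850 CPM in Control iWAT and 26750 to 28890 CPM in Control BAT, and Ucp1, the uncoupling protein of brown fat, led the brown adipocyte markers in BAT at a mean of 5266 CPM.

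The Control iWAT libraries 4 and 5 stood apart from the rest in a way that touches these genes. The 10 hepatocyte markers summed to 145 and 76.4 CPM in them, against 12.5, 22.8 and 18.3 CPM in Control iWAT libraries 1 to 3 and 4.25 to 12.9 CPM in Ai-α4KO iWAT. Albumin, the main plasma protein of liver, stood at 113 and 61.7 CPM in these 2 libraries and at no more than 19.8 CPM in the other 18. All 10 markers were higher in library 4 than in any of the other 18, and 7 of 10 were in library 5. For the 9 genes and the related genes of their clusters, results that rest on these libraries are given with and without them below, a choice made after the values were seen. Control iWAT libraries 1 and 4 further held B cell markers at 528 and 212 CPM, against 6.87 to 8.65 CPM in the other 3, and T cell markers at 241 and 274 CPM, against 9.14 to 11.5 CPM. Skeletal muscle markers stood at 7685 CPM in Control iWAT library 4 and 5694 CPM in Ai-α4KO iWAT library 1, and at no more than 193 CPM in the other 8 iWAT libraries.

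Most of the acute phase genes rose in the fat of Ai-α4KO mice. In iWAT 5 of the 9 rose (Saa3, Lcn2, Hp, Orm2 and Lbp) and none fell, where 11.3% of the 14604 genes tested rose and 10.7% fell. In BAT 8 of 9 rose, all but Orm1, and none fell, where 18.2% of 14344 genes rose and 13.3% fell. The 8 include Saa1 and Saa2, which were at or near 0 counts in Control BAT, and 6 of the other 7 rose. The median log2 fold change of the 9 genes was 1.64 in iWAT and 4.98 in BAT, against 0.01 and -0.03 over all genes tested. The BAT median includes Saa1 and Saa2, which were kept for the test through the Ai-α4KO libraries alone. The other 7 ran from 0.21 for Orm1 to 7.12 for Lcn2 in BAT. The iWAT median of the 9 genes was 4.35 without Control iWAT libraries 4 and 5. Every Ai-α4KO library lay above every Control library for 5 of the 9 genes in iWAT and 8 of 9 in BAT, where the same held for 20.7% and 24.7% of all genes tested. The 8 again include Saa1 and Saa2, and the same held for 6 of the other 7. The tissues are whole fat, so more cells of a type and more RNA per cell cannot be told apart in any of these values.

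**Figure D1:**
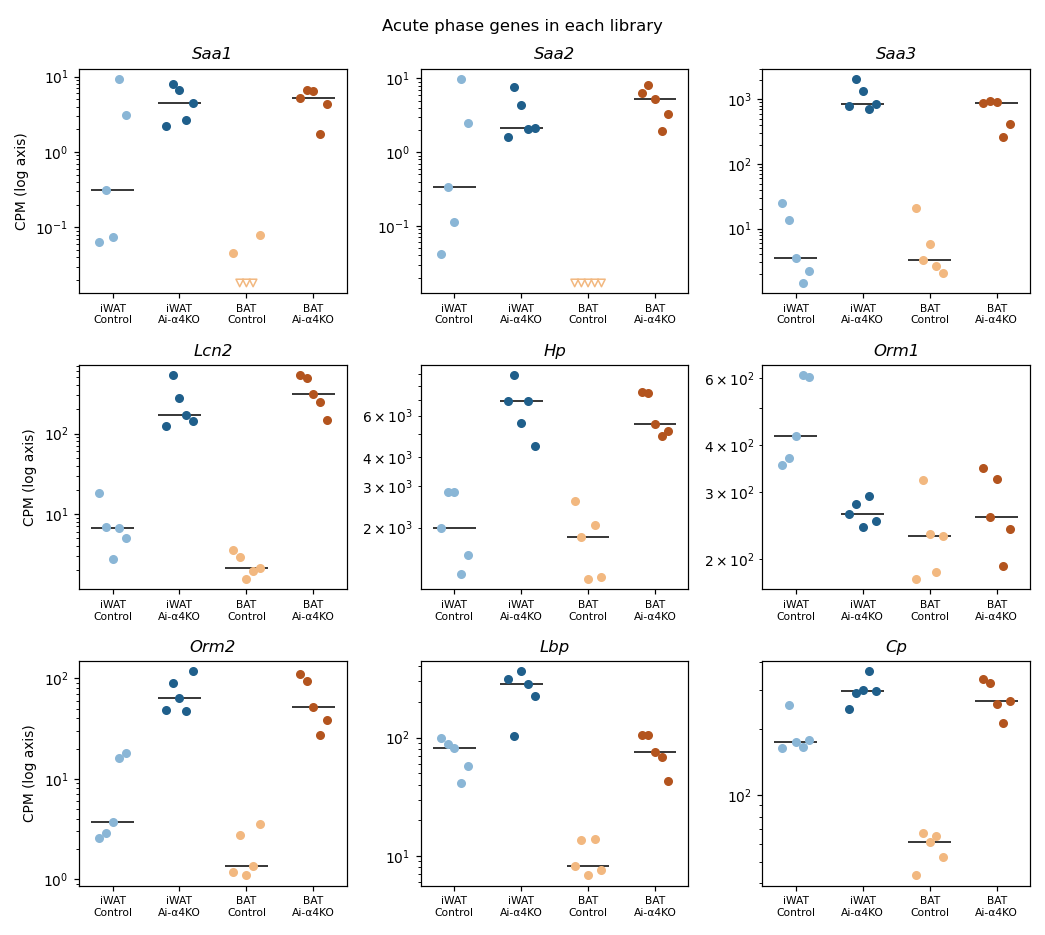
CPM on log axes of each of the 9 genes in the 5 libraries of each group, in the order 1 to 5 from left to right, with the median of the group as a line. Open triangles at the bottom mark libraries with 0 counts. Both Ai-α4KO groups lie above the matching Control groups for Saa3, Lcn2, Hp, Orm2 and Lbp, and libraries 4 and 5 are the highest of the Control iWAT group for Saa1, Saa2, Orm1 and Orm2.

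**Figure D2:**
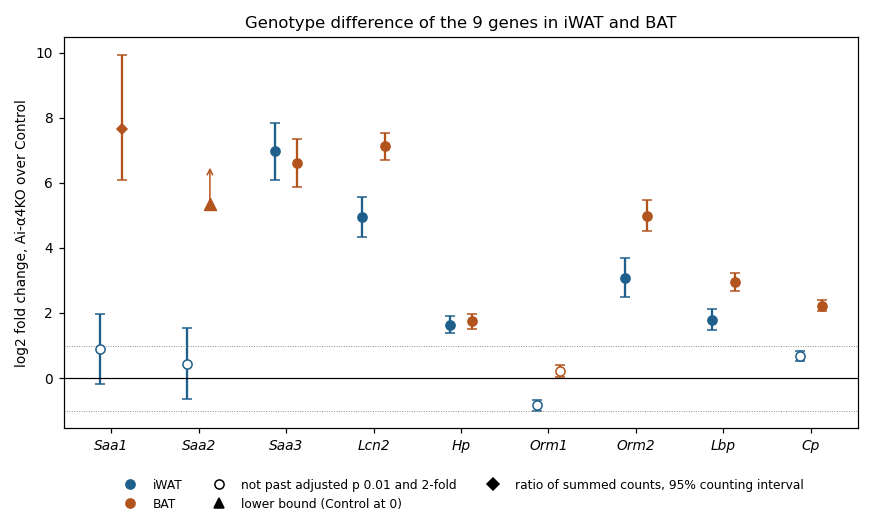
Log2 fold change of Ai-α4KO over Control for the 9 genes in iWAT and BAT. Circles are edgeR estimates with SE bars, open where the gene did not pass adjusted p below 0.01 and 2-fold, the triangle with an arrow is a lower bound for Saa2, and the diamond is the ratio of summed counts of Saa1 with its 95% counting interval. Dotted lines mark 2-fold. Orm1 is the gene nearest to 0 in BAT and the gene below 0 in iWAT.

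The serum amyloid A genes lie in 1 cluster on chromosome 7 (mm10), where Saa3 spans chr7:46711998-46715676 and Saa1 chr7:46740499-46742980 on the minus strand and Saa2 chr7:46751833-46754314 on the plus strand. Saa1 and Saa2 are close copies that are transcribed away from each other. Upstream bases of all 3 are shown because those of Saa1 and Saa2 are near copies and those of Saa3 are not. In the RefSeq promoter table used here 6 of the 9 genes were matched (Saa1, Saa2, Saa3, Lcn2, Orm2 and Cp), and Hp, Orm1 and Lbp were not. The stretches below run from base -230 to base -71 before the start site (GRCm38.p6, the build of mm10). Capitals mark matches on either strand to TTNNGNAA, a loose form of the site that C/EBP factors bind.
Saa3, chr7:46715747-46715906, minus strand: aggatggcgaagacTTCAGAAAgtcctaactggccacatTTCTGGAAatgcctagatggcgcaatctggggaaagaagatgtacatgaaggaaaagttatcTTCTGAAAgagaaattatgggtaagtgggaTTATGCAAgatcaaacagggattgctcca
Saa1, chr7:46743051-46743210, minus strand: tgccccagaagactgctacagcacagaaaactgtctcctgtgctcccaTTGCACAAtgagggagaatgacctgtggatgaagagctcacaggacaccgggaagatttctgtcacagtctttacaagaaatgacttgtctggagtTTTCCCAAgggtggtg
Saa2, chr7:46751603-46751762, plus strand: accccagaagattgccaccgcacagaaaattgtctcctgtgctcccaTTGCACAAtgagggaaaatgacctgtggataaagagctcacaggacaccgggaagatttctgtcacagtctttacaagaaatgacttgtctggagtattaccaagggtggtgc

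Saa3 held 4 matches in its 250 upstream bases, a number that 0.591% of all 32851 promoter entries reached. Saa1 held 2 matches and Saa2 held 1, where 36.8% of all entries held at least 1 and 10.9% at least 2. The 250 upstream bases of Saa1 and Saa2 were 95.2% identical, against 61.6% for Saa1 and Saa3. No entry of the 6 genes held TTCNNNGAA, a STAT site present in 7.0% of all entries, or the consensus NF-κB site, present in 7.3%. These are matches of letters in a short window and do not locate a bound site.

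Saa3, the serum amyloid A gene of fat and macrophages in mice, had the largest change of the 9 genes in iWAT. Saa3 stood at 25.0, 13.6, 3.57, 1.45 and 2.20 CPM in Control iWAT libraries 1 to 5 and at 794, 2089, 1329, 711 and 845 CPM in Ai-α4KO iWAT. In BAT Saa3 stood at 20.9, 3.33, 5.85, 2.68 and 2.03 CPM in Control and at 874, 940, 928, 265 and 421 CPM in Ai-α4KO. The genotypes did not overlap in either tissue, although Control values themselves spread widely and library 1 was the highest Control in both. On the log2 scale Saa3 rose by 6.96 ± 0.89 in iWAT, with an adjusted p of 6.74e-05, and by 6.60 ± 0.74 in BAT, with an adjusted p of 1.10e-05. It became the gene with the 11th highest mean FPKM of 25219 in Ai-α4KO iWAT and the 44th highest in Ai-α4KO BAT, from rank 3732 and rank 4812 in Control.

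Saa1 and Saa2, the circulating serum amyloid A proteins made mainly by liver, were scarce in Control BAT and rose there. Saa1 stood at 0.0455 and 0.0796 CPM in Control BAT libraries 1 and 5, 3 counts in all, and at 0 in the other 3, against 5.18, 6.66, 6.44, 1.74 and 4.29 CPM in Ai-α4KO BAT. Saa2 had 0 counts in all 5 Control BAT libraries and stood at 6.43, 8.26, 5.29, 1.96 and 3.30 CPM in Ai-α4KO BAT. Both genes separated the genotypes completely in BAT. The ratio of summed Saa1 counts per library size was 200.1, with a 95% exact interval of 68.2 to 972 that covers counting error only. Saa2 was at least 41.04-fold higher, taking 3 counts in each Control library as the floor. Both genes were called by edgeR in BAT, but they passed the filter on low counts there through the Ai-α4KO libraries alone, so their calls are given as a description.

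In iWAT the outcome for Saa1 and Saa2 turned on the Control libraries with hepatocyte markers. Saa1 stood at 0.0635, 0.311, 0.0751, 9.35 and 3.11 CPM in Control iWAT libraries 1 to 5 and at 2.20, 8.02, 6.70, 2.67 and 4.46 CPM in Ai-α4KO. Saa2 stood at 0.0424, 0.342, 0.113, 9.90 and 2.52 CPM in Control and at 1.63, 7.54, 4.31, 2.06 and 2.10 CPM in Ai-α4KO. Control libraries 4 and 5 reached or passed the Ai-α4KO range for both genes, and the other 3 Control libraries lay below all Ai-α4KO libraries. With all 10 libraries the log2 fold changes were 0.89 ± 1.07 for Saa1 (adjusted p = 0.507) and 0.44 ± 1.09 for Saa2 (adjusted p = 0.756). Without Control libraries 4 and 5, a choice made after these values were seen, they were 4.93 ± 0.73 (adjusted p = 6.52e-04) and 4.35 ± 0.83 (adjusted p = 0.00244), and 7 of the 9 genes then rose in iWAT, where 9.37% of 15002 genes did. With all 10 libraries and the hepatocyte marker score as a covariate they were 5.37 ± 0.96 (adjusted p = 0.00136) and 4.93 ± 0.97 (adjusted p = 0.00234).

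**Figure D3:**
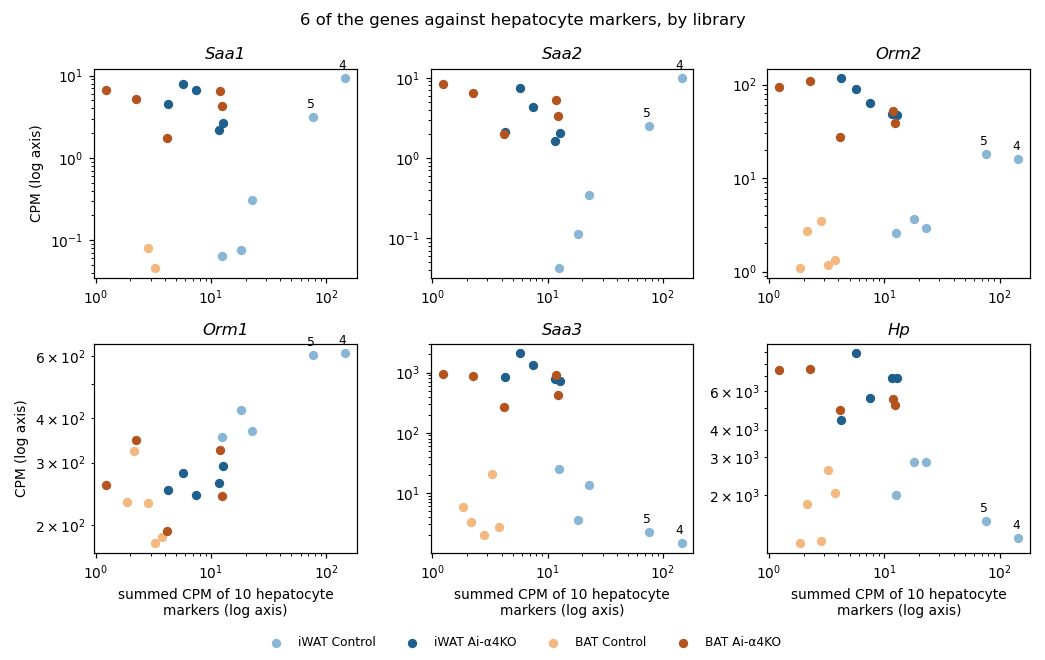
CPM of 6 of the genes against the summed CPM of the 10 hepatocyte markers, each point 1 library and both axes logarithmic, with Control iWAT libraries 4 and 5 numbered. Libraries at 0, which are 3 Control BAT libraries for Saa1 and all 5 for Saa2, are not drawn. The numbered libraries have the highest hepatocyte marker sums (145 and 76.4 CPM), with Saa1, Saa2 and Orm2 above the other Control iWAT libraries and Saa3 and Hp below them.

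Saa3 supplied most of the serum amyloid A transcript in the knockout tissues. The summed FPKM of Saa1, Saa2 and Saa3 was 1320 to 3858 in Ai-α4KO iWAT and 425 to 1725 in Ai-α4KO BAT, and Saa3 made up 99.3% to 99.6% and 98.4% to 98.9% of it. In Control iWAT that share ran from 7.93% to 99.6%, with the low end in library 4. Saa1 and Saa2 were present in near equal parts, with Saa1 at 59.0% ± 6.1 of their sum in Ai-α4KO iWAT and 49.6% ± 5.7 in Ai-α4KO BAT (SD, n = 5). The split between these copies is uncertain, because their transcripts are 94.4% identical and the counting tool is not given in the sources used here, although no window of 150 bases, the read length, is shared in full. Saa4, the constitutively expressed relative in the same cluster, ran from 0.0212 to 0.955 CPM in the Control libraries of iWAT and from 0.648 to 3.83 CPM in those of Ai-α4KO, and did not pass the test (log2 fold change 2.55 ± 0.85, adjusted p = 0.024). Without Control iWAT libraries 4 and 5 the Saa4 change was 4.96 ± 0.82 and passed (adjusted p = 0.00114). In BAT Saa4 had 0 counts in all 5 Control libraries and 3 to 32 counts in each Ai-α4KO library, at least 4.21-fold higher with 3 counts a library as the floor, and had too few counts for the test.

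Lcn2 (chr2:32384637-32387739, minus strand) rose strongly in both depots. Lcn2 stood at 18.4, 6.90, 2.78, 6.74 and 5.01 CPM in Control iWAT libraries 1 to 5 and at 126, 534, 273, 169 and 143 CPM in Ai-α4KO iWAT. In BAT Lcn2 stood at 3.55, 2.90, 1.54, 1.94 and 2.15 CPM in Control and at 531, 490, 315, 247 and 148 CPM in Ai-α4KO. Neither tissue showed any overlap of the genotypes. Lcn2 rose by 4.95 ± 0.60 on the log2 scale in iWAT, with an adjusted p of 5.06e-05, and by 7.12 ± 0.41 in BAT, with an adjusted p of 9.29e-08. In terms of mean CPM, that is 31.3-fold in iWAT and 143-fold in BAT, where Control started 3.30-fold lower than in iWAT.

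Hp (chr8:109575128-109579172, minus strand) was the most abundant of the 9 genes in every group and rose further. Hp stood at 1998, 2850, 2828, 1276 and 1532 CPM in Control iWAT and at 6904, 8919, 5568, 6898 and 4441 CPM in Ai-α4KO iWAT. In BAT Hp stood at 2601, 1834, 1207, 2054 and 1232 CPM in Control and at 7560, 7508, 5528, 4932 and 5156 CPM in Ai-α4KO. All Ai-α4KO libraries lay above all Control libraries of their tissue. Hp rose by 1.64 ± 0.26 on the log2 scale in iWAT, with an adjusted p of 3.19e-04, and by 1.75 ± 0.23 in BAT, with an adjusted p of 4.66e-05. By mean FPKM haptoglobin mRNA ranked 20th of all 25219 genes in Control iWAT, where Ai-α4KO placed it 3rd, and 59th and 4th in BAT.

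The α1-acid glycoprotein genes lie side by side on chromosome 4, with Orm1 at chr4:63344566-63348162, Orm3 at chr4:63356162-63359511 and Orm2 at chr4:63362449-63365877, all on the plus strand. The upstream bases of Orm2 and Orm3 are shown because these 2 genes of the cluster were matched in that table, from base -170 to base -71 with the same matches in capitals.
Orm2, chr4:63362279-63362378, plus strand: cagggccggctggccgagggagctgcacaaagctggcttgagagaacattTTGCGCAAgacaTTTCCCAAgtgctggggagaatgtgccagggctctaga
Orm3, chr4:63355988-63356087, plus strand: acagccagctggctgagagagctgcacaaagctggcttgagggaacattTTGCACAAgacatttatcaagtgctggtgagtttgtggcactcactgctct

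The 250 upstream bases of Orm2 and Orm3 were 87.6% identical, and Orm2 held 2 matches where Orm3 held 1. Orm2 rose in both tissues. Orm2 stood at 2.58, 2.89, 3.68, 16.0 and 17.9 CPM in Control iWAT libraries 1 to 5 and at 48.2, 89.2, 63.9, 47.3 and 117 CPM in Ai-α4KO iWAT. In BAT Orm2 stood at 1.18, 2.74, 1.09, 1.34 and 3.5 CPM in Control and at 110, 94.0, 52.2, 27.3 and 38.9 CPM in Ai-α4KO. The genotypes did not overlap, and in iWAT the highest Control libraries were again 4 and 5. On the log2 scale the rise was 3.08 ± 0.60 in iWAT, with an adjusted p of 0.00122, and 4.98 ± 0.48 in BAT, with an adjusted p of 3.01e-06. Without Control iWAT libraries 4 and 5 the iWAT change was 4.52 ± 0.39.

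Orm1, the more abundant gene of the pair in fat, did not rise. Orm1 stood at 354, 369, 423, 611 and 604 CPM in Control iWAT libraries 1 to 5 and at 263, 280, 244, 293 and 252 CPM in Ai-α4KO iWAT. In BAT Orm1 stood at 178, 324, 233, 186 and 230 CPM in Control and at 347, 259, 326, 192 and 241 CPM in Ai-α4KO. In iWAT every Ai-α4KO library lay below every Control library, and in BAT the genotypes overlapped. The iWAT difference had an adjusted p of 0.00165 in edgeR but stayed under 2-fold, at a log2 fold change of -0.83 ± 0.17, and in an exact two-sided permutation test p was 0.0079, the smallest that 5 against 5 libraries allow. It was -0.59 ± 0.12 (adjusted p = 0.00336) without Control libraries 4 and 5, which held the highest Orm1, and -0.47 ± 0.13 (adjusted p = 0.0148) with the hepatocyte marker score as a covariate. In BAT the log2 fold change was 0.21 ± 0.19 (adjusted p = 0.353).

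Orm2 made up 0.718% to 2.86% of the summed Orm1 and Orm2 FPKM in Control libraries of iWAT and 13.8% to 31.6% in those of Ai-α4KO. In BAT its part was 0.461% to 1.49% in Control and 12.3% to 26.4% in Ai-α4KO. The sum of both genes was 438 to 756 FPKM in Control and 385 to 470 FPKM in Ai-α4KO libraries of iWAT. In BAT the sum was 183 to 314 FPKM in Control (mean 233) and 240 to 564 FPKM in Ai-α4KO (mean 403). The transcripts of Orm1 and Orm2 are 91.0% identical with no shared window of 150 bases, so this split too is uncertain as far as the counting of shared reads goes. Orm3 stood at 2.37, 4.07, 3.27, 15.3 and 13.9 CPM in Control iWAT and at 1.89, 2.37, 1.84, 1.70 and 2.78 CPM in Ai-α4KO iWAT, where it fell (log2 fold change -1.88 ± 0.51, adjusted p = 0.00905). Control library 1 lay within the Ai-α4KO range, and without Control libraries 4 and 5 the change was -0.68 ± 0.28 and did not pass (adjusted p = 0.0745).

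Lbp (chr2:158306493-158332852, plus strand), which hands lipopolysaccharide to CD14, rose in both tissues. Lbp stood at 99.6, 88.2, 81.5, 41.5 and 57.6 CPM in Control iWAT and at 313, 103, 363, 282 and 226 CPM in Ai-α4KO iWAT. In BAT Lbp stood at 8.20, 13.5, 6.84, 14 and 7.69 CPM in Control and at 105, 106, 76.0, 69.1 and 42.9 CPM in Ai-α4KO. The genotypes did not overlap in either tissue, although Ai-α4KO iWAT library 2 came within a few CPM of the highest Control. Lbp rose by 1.80 ± 0.33 on the log2 scale in iWAT, with an adjusted p of 8.22e-04, and by 2.95 ± 0.28 in BAT, with an adjusted p of 2.98e-06.

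Cp (chr3:19957054-20009750, plus strand) rose in BAT. Cp stood at 163, 255, 174, 165 and 177 CPM in Control iWAT and at 244, 291, 298, 364 and 295 CPM in Ai-α4KO iWAT. In BAT Cp stood at 43.3, 67.7, 61.6, 65.5 and 52.4 CPM in Control and at 335, 322, 258, 212 and 267 CPM in Ai-α4KO. The genotypes overlapped in iWAT through Control library 2 and were separate in BAT. The log2 fold change was 2.23 ± 0.16 in BAT (adjusted p = 3.70e-07) and 0.67 ± 0.15 in iWAT, where the adjusted p was 0.00282 but the change stayed under 2-fold. The Cp change in iWAT was 0.53 ± 0.19 (adjusted p = 0.0412) without Control iWAT libraries 4 and 5.

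The genotype effect on Cp differed between the tissues. In a fit of all 20 libraries the effect in BAT was larger than in iWAT by 1.59 ± 0.22 on the log2 scale (adjusted p = 3.16e-04), and Cp was the 1 gene of the 9 with such a difference, where 4.86% of 15230 genes had one. The difference for Lcn2 was 2.20 ± 0.67 (adjusted p = 0.0339) and for Orm1 1.07 ± 0.27 (adjusted p = 0.0137), both short of the threshold. For Saa1 and Saa2 no difference of effects is given, since Control BAT was at or near 0 counts. Lcn2 passed without Ai-α4KO iWAT library 2, at 2.78. Orm2 (1.94 ± 0.77) and Lbp (1.18 ± 0.45) did not pass either. Without Control iWAT libraries 4 and 5 the difference was 0.43 ± 0.61 for Orm2 (adjusted p = 0.694), and that of Cp was 1.66 ± 0.25 (adjusted p = 9.70e-04). For Hp (0.14 ± 0.36) and Saa3 (-0.34 ± 0.99) the estimate was small against its error, which for Saa3 leaves room for a difference of 2-fold or more.

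The order of the genes by FPKM changed with genotype. In Control iWAT the medians ran from Hp (1400 FPKM) through Orm1 (443), Lbp (25.97), Cp (24.5), Lcn2 (7.33), Saa3 (5.41) and Orm2 (3.83) to Saa2 (0.515) and Saa1 (0.470). Hp stood apart from Orm1 and Orm1 from Lbp, Lbp overlapped Cp, Cp stood apart from Lcn2, and the genes from Lcn2 down overlapped their neighbours. In Ai-α4KO iWAT the medians ran from Hp (5028 FPKM) through Saa3 (1560), Orm1 (342), Lcn2 (194), Lbp (109), Orm2 (79.5) and Cp (45.8) to Saa1 (7.21) and Saa2 (3.38). Here Hp overlapped Saa3, Orm1 overlapped Lcn2, Lbp overlapped Orm2 and Saa1 overlapped Saa2, and the other neighbours stood apart.

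In Control BAT the medians ran from Hp (1007 FPKM) through Orm1 (230), Cp (7.44), Saa3 (4.62), Lbp (2.55), Lcn2 (2.01) and Orm2 (1.39) to Saa1 and Saa2, both at a median of 0. Hp, Orm1 and Orm2 each stood apart from the next gene down, and the other neighbours overlapped. In Ai-α4KO BAT the medians ran from Hp (3672 FPKM) through Saa3 (1562), Lcn2 (330), Orm1 (324), Orm2 (60.3), Cp (38.8) and Lbp (26.9) to Saa1 (8.10) and Saa2 (7.75). Hp, Orm1 and Lbp stood apart from the next gene down there, and the other neighbours overlapped.

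The 9 genes together made up 0.461% ± 0.075 of the FPKM of all genes in Control iWAT, against 1.68% ± 0.47 with the knockout (SD, n = 5). The shares in BAT were 0.272% ± 0.063 in Control and 1.28% ± 0.44 in Ai-α4KO.

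**Figure D4:**
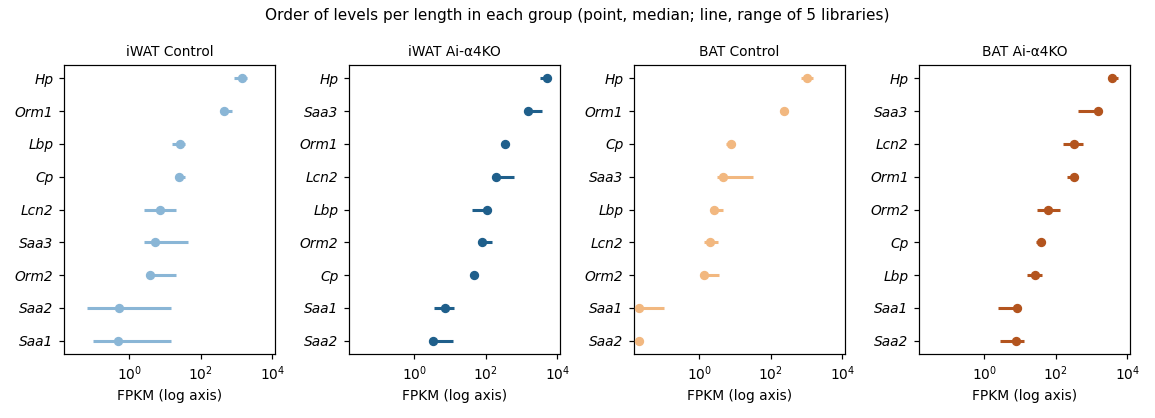
The 9 genes ordered by median FPKM in each group, on log axes. Points are medians and lines the range of 5 libraries, and FPKM below 0.02, including 0, is drawn at 0.02. Hp leads every group, and Saa3 stands in the second place in both Ai-α4KO groups but the sixth in Control iWAT and the fourth in Control BAT.

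Between the tissues of Control mice, Lcn2, Orm1, Lbp and Cp were lower in BAT than in iWAT, which is 4 of the 7 genes with enough counts for a test, where 14.7% of 14260 genes were lower and 21.9% differed. The log2 differences were -2.91 ± 0.29 for Lbp (adjusted p = 1.82e-05), -1.72 ± 0.16 for Cp (adjusted p = 1.40e-05), -1.76 ± 0.46 for Lcn2 (adjusted p = 0.00732) and -1.07 ± 0.20 for Orm1 (adjusted p = 0.00115). Every BAT library lay below every iWAT library for Lbp, Cp and Orm1 of those 7, where this held for 19.5% of all genes tested. The Lcn2 call was lost without Control iWAT library 1 or 2 or Control BAT library 2, 3, 4 or 5, with differences of -1.97 to -1.19 over all 10 such fits. The Orm1 call was lost without Control iWAT library 4 or 5 or Control BAT library 1 (-1.21 to -0.97), and Orm1 was -0.78 ± 0.18 without Control iWAT libraries 4 and 5 together. Hp (-0.27 ± 0.28) and Saa3 (-0.44 ± 0.85) had differences smaller than their SE, and Orm2 (-2.16 ± 0.63) had an adjusted p of 0.0139. The Orm2 difference passed without Control iWAT library 1 or without library 2, and was -0.67 ± 0.41 (adjusted p = 0.208) without libraries 4 and 5, which held its highest values.

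Between the tissues of Ai-α4KO mice, Lbp was the 1 gene of the 9 that was lower in BAT, and none was higher (log2 difference -1.65 ± 0.33, adjusted p = 0.00301), where 3.09% of 14703 genes were lower and 11.5% differed. No gene of the 9 separated the tissues completely, where 25.2% of all genes tested did. The log2 differences of the other 8 ran from -0.71 ± 0.39 for Saa3 to 0.56 ± 0.47 for Saa2. These comparisons share their libraries with the genotype comparisons above.

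Some libraries were the highest or lowest of their group for several of the genes. Among the Ai-α4KO iWAT libraries, library 2 held the highest Saa1, Saa2, Saa3, Lcn2 and Hp and the lowest Lbp. The same library had the highest neutrophil markers of its group, at 528 CPM against 147 to 326 CPM, and the lowest stromal progenitor markers, at 2524 CPM against 4640 to 5674 CPM. It also had the most epithelial markers, at 123 CPM against 75.3 CPM in library 1, where Lcn2 was lowest, and 1.79 to 6.17 CPM in libraries 3 to 5. Control iWAT library 1, with the highest Control Lcn2, held epithelial markers at 77.4 CPM, against 3.48 to 30.01 CPM in the other Control iWAT libraries. Among the Ai-α4KO BAT libraries, libraries 1 and 2 held the highest Lcn2, Hp, Orm2, Lbp and Cp, and library 4 held the lowest Saa1, Saa2, Saa3, Hp, Orm1, Orm2 and Cp. Library 4 also had the most skeletal muscle markers, at 48130 CPM against 14190 to 26740 CPM. With the muscle marker score as a covariate, or without Ai-α4KO BAT libraries 3 and 5, which held albumin at 7.11 and 7.34 CPM, 8 of the 9 genes rose in BAT, where 10.7% and 15.1% of all genes tested did.

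Markers of other cell types moved with genotype beside these genes. Their counts stand beside the 11.3% of all genes that rose and 10.7% that fell in iWAT. In BAT the shares were 18.2% and 13.3%. The 10 macrophage markers, led by Mrc1, summed in iWAT to 814 to 1657 CPM in Control and 3975 to 5068 CPM in Ai-α4KO, and to 223 to 387 CPM and 1963 to 3717 CPM in BAT. Of them 8 of 10 rose in iWAT, 7 of 10 without Control iWAT libraries 4 and 5, and 10 of 10 in BAT. The 11 neutrophil markers in the table, led by S100a9, summed to 21.8 to 197 CPM in Control and 147 to 528 CPM in Ai-α4KO iWAT, and to 12.7 to 36.6 CPM and 202 to 365 CPM in BAT. Of the neutrophil markers tested, 4 of 9 rose and 1, Elane, fell in iWAT, and 6 of 7 rose in BAT. Without Control iWAT libraries 4 and 5, 2 of 11 neutrophil markers tested rose in iWAT and Elane fell.

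The 10 adipocyte markers, led by Fabp4, summed to 13090 to 18490 CPM in Ai-α4KO iWAT and 13850 to 17430 CPM in Ai-α4KO BAT. Of them 8 fell in iWAT and 7 in BAT. Of the 10 skeletal muscle markers, led by Myh4 in BAT, 8 rose in BAT with a summed range of 14190 to 48130 CPM against 999 to 10210 CPM in Control, and none passed in iWAT. Brown adipocyte markers fell for 6 of 7 genes in iWAT and 2 of 7 in BAT. Endothelial markers fell for 4 of 6 in iWAT and 5 of 6 in BAT, and T cell markers rose for 5 of 7 tested in BAT and 0 of 8 in iWAT, where Control libraries 1 and 4 held more of them than any Ai-α4KO library. Stromal progenitor markers rose for 1 of 9 in iWAT, near the 11.3% of all genes that rose there, and 4 of 9 in BAT. Without Control iWAT libraries 4 and 5, 0 of 9 stromal progenitor markers rose in iWAT. Hepatocyte markers stayed low in BAT, at 1.86 to 3.77 CPM in Control, where Cyp3a11 was at 0, and 1.23 to 12.4 CPM in Ai-α4KO. Lcn2 and Hp are also made by neutrophils and Saa3 by macrophages, and the part of these cells in the rises was not tested.

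Cytokines that drive acute phase genes rose in the same tissues. The list of inducers, receptors, partners and related genes was drawn up with earlier results of these data known. Of 12 inducing cytokines 8 were tested in iWAT, of which 6 rose and 1 fell, and 8 in BAT, of which 6 rose. The shares of all genes that rose were 11.3% in iWAT and 18.2% in BAT. Without Control iWAT libraries 4 and 5, 3 of the 8 rose in iWAT (Il6, Il1b and Lif) and 1 fell. Il6, the main inducer of liver acute phase genes, stood at 0.0212 to 0.155 CPM in Control and 16.9 to 63.8 CPM in Ai-α4KO libraries of iWAT (log2 fold change 9.32 ± 0.52, adjusted p = 1.68e-06). Il6 passed the filter on low counts in iWAT through the Ai-α4KO libraries alone, so its call is given as a description. In BAT Il6 stood at 0 to 0.137 CPM in Control, 7 counts in all, and 14.7 to 34.9 CPM in Ai-α4KO, a ratio of summed counts of 467 with a 95% exact interval of 227 to 1163. Il1b rose by 4.95 ± 0.47 in iWAT and 5.53 ± 0.28 in BAT on the log2 scale. Tnf rose by 2.25 ± 0.52 and 4.28 ± 0.34, and oncostatin M (Osm), which signals through gp130 as IL-6 does, by 2.09 ± 0.46 and 4.29 ± 0.35. Il1a and Lif also rose in both tissues, at 2.36 ± 0.59 and 1.35 ± 0.26 in iWAT. Il1a held 6 counts in all in Control BAT. In BAT Il6 and Il1a passed the filter on low counts through the Ai-α4KO libraries alone. Both are among the 6 that rose there, and their calls are given as a description. Ctf1, cardiotrophin 1 of the same gp130 family, fell by 3.12 in iWAT (SE 0.35). Il22 and Il17a were at 3 counts or fewer in every library.

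Of the cytokine receptors tested 4 of 11 rose in iWAT, 2 of 11 without Control libraries 4 and 5 (Tnfrsf1b and Il1rap), and 5 of 11 in BAT, with none lower. Tnfrsf1b, a TNF receptor of immune cells, rose by 1.54 ± 0.14 in iWAT and 3.19 ± 0.21 in BAT on the log2 scale. Il1rap, the shared chain of the IL-1 receptors, rose by 1.81 ± 0.20 and 1.62 ± 0.19, and Osmr by 1.07 ± 0.12 and 1.68 ± 0.18. Among 15 signal and transcription factors tested, 4 rose in iWAT and 5 in BAT, and 1 fell in each. Without Control iWAT libraries 4 and 5, 3 rose in iWAT (Rel, Socs3 and Jak2), and Cebpb and Nfkb2 lost their calls. Over all genes tested 11.3% rose in iWAT and 18.2% in BAT, for the receptors as for these factors. Socs3, the feedback inhibitor of IL-6 signalling, rose by 2.64 ± 0.32 in iWAT and 4.02 ± 0.31 in BAT. Rel, an NF-κB subunit, rose by 1.54 ± 0.24 and 1.12 ± 0.27. Cebpd, a C/EBP factor of the acute phase, rose by 1.53 ± 0.20 in BAT and was at 0.54 ± 0.34 in iWAT, and Cebpa, a C/EBP factor of mature adipocytes and hepatocytes, had log2 fold changes of -1.65 ± 0.18 and -1.84 ± 0.14.

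**Figure D5:**
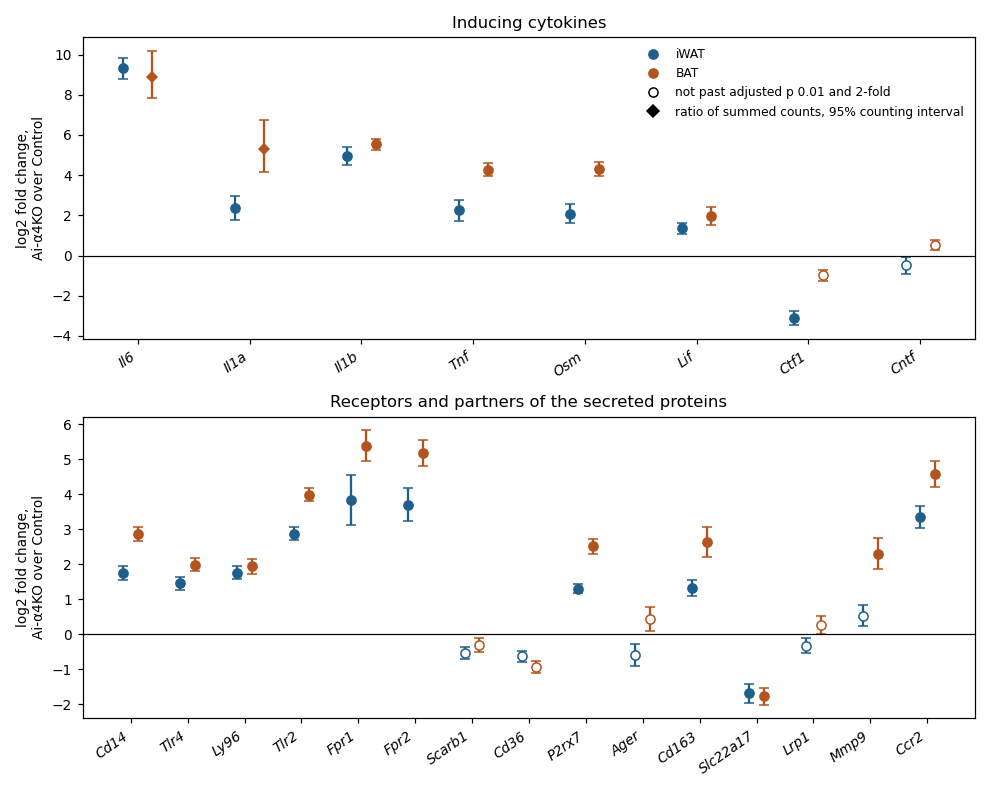
Log2 fold changes of Ai-α4KO over Control in iWAT and BAT for the inducing cytokines (top) and the receptors and partners of the secreted proteins (bottom) tested in both tissues. Circles are edgeR estimates with SE bars, open where the gene did not pass adjusted p below 0.01 and 2-fold, and diamonds are ratios of summed counts with 95% counting intervals for Il6 and Il1a in BAT. Il6 lies highest in both tissues, and Slc22a17 lies below 0 in both.

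Most receptors and partners of the secreted proteins rose. Of 15 tested, 9 rose and 1 fell in iWAT, and 10 rose and 1 fell in BAT. Over all genes tested 11.3% rose in iWAT and 18.2% in BAT. All 3 genes of the lipopolysaccharide receptor complex that Lbp feeds rose, with log2 fold changes in iWAT of 1.75 ± 0.20 for Cd14, 1.45 ± 0.17 for Tlr4 and 1.76 ± 0.19 for Ly96 (MD-2). In BAT the same genes rose by 2.87 ± 0.21, 1.99 ± 0.19 and 1.95 ± 0.21. Of the receptors described for serum amyloid A some rose in both tissues, with Tlr2 at 2.88 ± 0.18 in iWAT and 4.0 ± 0.20 in BAT, Fpr1 at 3.83 ± 0.71 and 5.40 ± 0.44, Fpr2 at 3.71 ± 0.47 and 5.18 ± 0.38, and P2rx7 at 1.31 ± 0.13 and 2.51 ± 0.20. Cd36 (-0.64 ± 0.14 and -0.94 ± 0.17) and Scarb1 (-0.54 ± 0.18 and -0.30 ± 0.19), scavenger receptors that are also described to bind it, stayed under 2-fold, and so did Ager (-0.59 ± 0.31 and 0.42 ± 0.34).

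Cd163, the macrophage receptor of the haptoglobin and haemoglobin complex, rose by 1.33 ± 0.22 in iWAT and 2.63 ± 0.43 in BAT on the log2 scale. Slc22a17, a receptor described for lipocalin 2, had log2 fold changes of -1.69 ± 0.28 and -1.77 ± 0.24 and fell in both tissues. Mmp9, the protease that forms a complex with lipocalin 2, rose by 2.30 ± 0.44 in BAT and was at 0.53 ± 0.30 in iWAT. Ccr2, a receptor of monocyte attractants, rose by 3.36 ± 0.32 in iWAT and by 4.59 ± 0.37 in BAT.

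Of the 24 other acute phase genes tested in iWAT 4 rose and 2 fell, and of 16 tested in BAT 12 rose and 1 fell. Over all genes tested 11.3% rose and 10.7% fell in iWAT, shares that the iWAT counts are near. In BAT 18.2% of all genes rose and 13.3% fell. The iWAT count without Control libraries 4 and 5 was 5 that rose, Saa4 among them, and 1 that fell, with Orm3 no longer called. Ptx3, the long pentraxin made by many tissues, rose by 4.45 ± 0.69 in iWAT and 5.93 ± 0.53 in BAT on the log2 scale. Hpx, haemopexin, the haem-binding counterpart of haptoglobin, rose by 4.06 ± 0.98 and 5.67 ± 0.42. Serpina3n, a protease inhibitor, rose by 1.30 ± 0.24 and 4.38 ± 0.45, with a larger effect in BAT (difference 3.12 ± 0.51, adjusted p = 9.25e-04). Itih4, an inter-alpha-trypsin inhibitor heavy chain, stood at 0.900 to 2.33 CPM in Control BAT and 178 to 283 CPM in Ai-α4KO BAT. In iWAT Itih4 stood at 1.44 to 12.0 CPM in Control and 1.68 to 10.96 CPM in Ai-α4KO, and its genotype effect differed between the tissues by 7.17 ± 0.77 (adjusted p = 3.89e-05).

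Negative acute phase proteins are those whose plasma level drops in inflammation. Of the 6 tested in iWAT 3 fell and none rose, and of the 4 tested in BAT 1 fell and 1 rose. Over all genes tested 10.7% fell in iWAT, and 13.3% fell and 18.2% rose in BAT. Rbp4, the retinol carrier, fell in both, with log2 fold changes of -2.80 ± 0.41 in iWAT and -2.05 ± 0.51 in BAT. Trf (transferrin) fell by 1.71 in iWAT (SE 0.16) and was at -0.02 ± 0.31 in BAT. For Alb the iWAT value was -2.90 ± 0.71, with its 2 highest values in Control libraries 4 and 5, and -1.31 ± 0.43 without them, which did not pass (adjusted p = 0.0326). In BAT Alb was at 3.04 ± 0.93 (adjusted p = 0.0127). Its effect differed between the tissues by 5.95 ± 1.24 (adjusted p = 0.00446), and by 4.31 ± 1.12 without those libraries (adjusted p = 0.0218). Fetub, a fetuin, was the gene that rose in BAT (1.82 ± 0.31).

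Of the iron and haem genes 2 rose and 5 fell of 20 tested in iWAT, and 3 rose and 3 fell of 19 in BAT, beside the 11.3% and 18.2% of all genes that rose and the 10.7% and 13.3% that fell. Hmox1, the inducible haem oxygenase, rose by 2.17 ± 0.16 in iWAT and 3.8 ± 0.27 in BAT on the log2 scale, and Slc11a1, the phagosomal metal transporter of macrophages, by 1.56 ± 0.19 and 2.99 ± 0.21. Bmp6, which controls hepcidin, had log2 fold changes of -1.18 ± 0.24 and -2.79 ± 0.23. Slc40a1, the iron exporter whose iron ceruloplasmin oxidises, fell by 1.84 in BAT (SE 0.20), and the log2 fold change was -0.54 ± 0.22 in iWAT. Hephl1, a ferroxidase related to Cp, fell by 2.81 in iWAT (SE 0.51), and Heph, the membrane-bound one, by 1.08 (SE 0.19), a call that was lost without Control libraries 4 and 5. In BAT Hephl1 was at -0.16 ± 0.46 and Heph at -0.03 ± 0.40.

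The genes closest to each of the 9 in pattern were found by the root mean square difference of log2 CPM, each centred on its own mean over the 20 libraries. Saa3 was nearest to Sprr1a (0.894), Fosl1 (0.990) and Il6 (1.01), against a spread of Saa3 itself of 3.93 (SD of log2 CPM). Lcn2, with an SD of 3.23, was nearest to Clec4n (0.571), Slc7a11 (0.709) and Slpi (0.738). Saa1 and Saa2 shared Slfn1 (1.10 and 1.19) and Ambp (1.24 and 1.26) among their nearest 3, next to Gm14446 for Saa1 (1.23) and Npl for Saa2 (1.32). Orm2 was nearest to Tph2 (0.687), Clec5a (0.692) and Gm14446 (0.794).

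Genes with a smaller spread had smaller differences. Hp, with an SD of 0.983, was nearest to Myd88 (0.381), Pvr (0.381) and Gm15694 (0.388). Lbp, with an SD of 1.78, was nearest to Ugt1a7c (0.409), Siglec1 (0.426) and Cfb (0.432). Cp, with an SD of 0.999, was nearest to Zdhhc13 (0.265), Pdgfc (0.270) and Tns3 (0.300). Orm1, with an SD of 0.491, was nearest to 9230110C19Rik (0.245), Cdkl2 (0.252) and Stt3b (0.264). These are descriptions over 20 libraries that share 4 groups.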

How the data were processed

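The authors deposited 1 table for 25219 mouse genes with, per gene, an expected count in every library, not normalized (76.6% of nonzero values are whole), and an FPKM value, the count divided by transcript width and a library total. Per the study's methods, mRNA libraries were stranded and read in pairs (150 bp). Per the submitters' processing notes STAR 2.5.3a and mm10 were used, and the counting tool is not given in the sources used here. Expected counts were rounded. edgeR 4.0.16 (filterByExpr, TMM, glmQLFit, glmQLFTest, R 4.3.3) compared genotypes within each tissue (10 libraries), tissues within each genotype, and the genotype effects between tissues (20 libraries, adjusted p below 0.01 alone), with Benjamini-Hochberg adjustment over all genes kept. SE is the log2 fold change divided by the root of the F statistic. Scripts were tested on simulated data. Alternatives were DESeq2 1.42.0, limma 3.58.1 on log2(FPKM + 1) and log2(FPKM + 0.1), other scalings, filters and covariates, and libraries left out. The 9 genes and all lists were chosen with earlier results of these data known. Every one of the 9 is named. From the lists, inducing cytokines and partners past the thresholds and up to 4 others a list are named, and for each of the 9 genes the 3 nearest in pattern. Symbols absent from the table, such as Adgre1 and Ly6g, were not analysed here. Of the partner list, 1 planned gene is not reported here. Depth limits Saa1 and Saa2 most, where the 5 Control BAT libraries held 3 counts and 0 counts in all.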

Additional observations from a re-analysis of the deposited data

Results flagged for a closer look

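Of 34 sets of 5 libraries examined for the 9 genes, 4 had a library whose gap to the nearest other passed Dixon's 95% limit, which chance alone gives in about 1 set in 20. Saa2 in Control iWAT library 4 stood at 9.90 CPM against 2.52 CPM for the next library, and library 4 is the one with the most hepatocyte markers. Saa3 in Control BAT library 1 stood at 20.9 CPM against 5.85 CPM for the next. Lcn2 in Control iWAT library 1, which held the most B cell and neutrophil markers of its group, stood at 18.4 CPM against 6.90 CPM. Cp in Control iWAT library 2 stood at 255 CPM against 177 CPM. The genotype effect on Cp differed between the tissues by 1.59 on the log2 scale, BAT minus iWAT, in the test of the difference itself.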

How the results depend on the processing

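Of 996 alternative values for single genes, 930 kept direction and side of the threshold, 13 lost a call, 29 gained one and 24 turned direction. All 5 calls in iWAT and all 8 in BAT held in each fit that left out 1 library. For Saa1 and Saa2 in BAT this could hardly come out otherwise, since Control BAT was at or near 0 counts. The number of genes whose genotype effect differed between tissues, 1, became 5 at adjusted p below 0.05, 4 with DESeq2 and 2 without normalization factors, with upper-quartile scaling, with at least 10 counts in every library, or without Control iWAT libraries 1 and 4, and ran from 1 to 4 without single libraries, counts in which Saa1 and Saa2 rest on Control BAT at or near 0 counts. Cp passed in all 20 of those fits, and Orm1 (up to 1.28) passed without Control iWAT library 1, Ai-α4KO iWAT library 1, Control BAT library 2 or Ai-α4KO BAT library 4. Changes of direction were limited to differences that had not passed the test. The Saa3 difference between tissues was 0.28 without Control iWAT libraries 4 and 5 and -1.05 to 0.66 without single libraries. For Saa2 in iWAT the range was -0.0391 to 2.22. Between the Control tissues Saa3 was 0.0819 without Control iWAT libraries 1 and 4 and -1.44 to 0.38 without single libraries. Between the Ai-α4KO tissues, library sizes without factors, limma on log2(FPKM + 1) and on log2(FPKM + 0.1) gave -0.0733, -0.0439 and -0.0568 for Saa1 and -0.0678, -0.0970 and -0.0974 for Orm1. Without single libraries those differences ran from -0.11 to 0.32 for Saa1, -0.16 to 0.0859 for Hp, -0.0072 to 0.18 for Orm1, -0.41 to 0.089 for Orm2 and -0.12 to 0.0253 for Cp. The cause was not tested. The Lcn2 difference between Control tissues (-1.97 to -1.19) passed in 4 of 10 such fits and Orm1 (-1.21 to -0.97) in 7 of 10. Same-numbered libraries deviated together (r over 0.1) in at most 2 of 5 pairs, so the numbers were not taken as pairs. With the replicate block the calls were 5 in iWAT, 8 in BAT, 1 for the interaction, 4 between Control tissues and 0 between Ai-α4KO tissues, where Lbp was -1.62.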
